A study of Mus musculus with 16 samples.

Results

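Spliceosome transcripts were followed in a map of acetylated RNA from whole liver. The livers came from males of the db/db strain, obese and diabetic because the receptor for leptin is defective throughout the body, and from male lean controls of the strain C57BL/6. The genes were taken by annotation: every gene with a peak in any of the 8 deposited peak lists whose pathway entry is mmu03040 (Spliceosome), without the helicase symbols that start with Ddx or Dhx. This gave 91 genes of the 8602 genes with a peak. They held 1232 of the 68356 peaks, which merged into 329 of 25437 regions. Group db/db has 4 lists (db1, db2, db4, db5) and group lean has 4 (C5, C6, C7, C8), with C read as control. The names db5 and C5 to C8 are not among the sample titles, so a list was assigned to a group and not to a numbered sample. Each list is called a mouse here, although the labels do not say that each is a separate animal, so p-values measure the spread between these lists, which may be technical. The series counts 16 samples, immunoprecipitates and inputs, and its title places the study in work on hepatic NAT10 and fatty liver disease. Ages were not in the labels.

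The spliceosome cuts introns out of nuclear transcripts. The U1 particle marks the 5′ splice site and the U2 particle the branch point, after which the U4/U6.U5 tri-snRNP joins and the Prp19 complex helps to activate the machine. SR proteins and hnRNPs bind exons and introns and steer the choice of sites, and the exon junction complex stays on the spliced message. In N4-acetylcytidine (ac4C) the base carries an acetyl group added by the enzyme NAT10, which acts on ribosomal RNA and on some transfer RNAs at CCG. How much ac4C messenger RNA carries is debated in the field. The antibody pulls down RNA fragments, so a peak marks a stretch of a transcript and not a base.

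The starts of 5 genes carried uneven peaks, in at least 3 mice of one group and none of the other, and are shown for that reason. Of 38 regions over spliceosome starts, 1 leaned to db/db mice in this way and 4 to lean mice. The same share over the starts of all genes was not counted, so these 5 have no background beside them. The sequences are from RefSeq (GRCm38.p6, the assembly that mm10 names), each with 120 bases before the annotated start in lower case and then the first 30 transcribed bases, where capitals mark those inside the merged region. For Srsf4 the start at 131873637 is printed, and another is annotated at 131873639. The bounds of Srsf4 begin at 131873530, so part of its lower-case stretch lies inside the gene. The windows are chr3:108911700-108911849 on the minus strand for Prpf38b, chr4:108579307-108579456 on the minus strand for Prpf38a, chr4:131873517-131873666 on the plus strand for Srsf4, chr19:10895111-10895260 on the plus strand for Prpf19 and chr8:78508899-78509048 on the minus strand for Rbmxl1.
Prpf38b: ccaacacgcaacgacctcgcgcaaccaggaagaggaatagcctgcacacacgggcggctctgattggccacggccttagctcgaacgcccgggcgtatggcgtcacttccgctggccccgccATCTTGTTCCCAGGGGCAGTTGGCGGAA
Prpf38a: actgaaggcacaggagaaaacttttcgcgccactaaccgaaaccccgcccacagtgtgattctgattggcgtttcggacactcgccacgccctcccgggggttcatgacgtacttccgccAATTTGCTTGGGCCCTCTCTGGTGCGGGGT
Srsf4: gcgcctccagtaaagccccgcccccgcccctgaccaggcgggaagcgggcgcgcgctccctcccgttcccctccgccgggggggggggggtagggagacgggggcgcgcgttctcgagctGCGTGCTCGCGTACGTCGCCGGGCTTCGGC
Prpf19: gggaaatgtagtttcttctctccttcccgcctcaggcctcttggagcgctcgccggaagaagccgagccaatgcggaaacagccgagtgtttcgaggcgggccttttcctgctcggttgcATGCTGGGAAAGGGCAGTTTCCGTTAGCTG
Rbmxl1: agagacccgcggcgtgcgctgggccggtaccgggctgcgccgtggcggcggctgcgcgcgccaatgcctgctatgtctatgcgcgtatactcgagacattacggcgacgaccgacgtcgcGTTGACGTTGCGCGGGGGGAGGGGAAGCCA

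At another 9 starts a region called in all 8 mice overlapped the first 50 transcribed bases. For Sf3b2 the start at 5295455 is printed, and another is annotated at 5295457. The Hnrnpu region stops 18 bases short of the start at 178337815 and holds 12 of the 30 bases printed. The bounds of Hnrnpu reach to 178338891, beyond that start. The Hnrnpm region runs from 33685267 to 33686283 with the annotated start at 33685458, so most of it lies before the start. Those of Sf3a3 and Rbm17 also reach before the start. The lists give no strand, so such a peak need not come from the printed transcript. The first 30 transcribed bases of all 9 are printed with CCG in capitals, the triplet that NAT10 acetylates in ribosomal RNA. They lie at chr9:110656503-110656532 (Ccdc12, plus strand), chr17:33685429-33685458 (Hnrnpm, minus), chr1:178337786-178337815 (Hnrnpu, minus), chr4:46138511-46138540 (Ncbp1, plus), chr2:11603170-11603199 (Rbm17, minus), chr4:124714861-124714890 (Sf3a3, plus), chr19:5295426-5295455 (Sf3b2, minus), chr7:45395713-45395742 (Snrnp70, minus) and chr5:115327177-115327206 (Srsf9, plus).
Ccdc12: ctcctgctcactgagcctgcgcgaggcaga
Hnrnpm: ggtcgttcggggtcacgtgagcgcgcaggc
Hnrnpu: atattacgtgcgcggcgCCGcccctgcgag
Ncbp1: aagtcgtcggcgcaggggCCGCCGggaaaa
Rbm17: cgtggaggctcggcgctgcggcggactCCG
Sf3a3: gtggtCCGccttgaaacgCCGtggccaagg
Sf3b2: gaagtaggcCCGgcggctgacCCGagcttc
Snrnp70: ggcgcatgcgcattgcgaaaggcggaggga
Srsf9: gcggctgagcgcctcgggagcCCGcggggg

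The mean number of spliceosome genes with a peak was the same in db/db livers as in lean livers. A peak was found in 60, 64, 64 and 59 of the 91 genes in db1, db2, db4 and db5, and in 66, 58, 59 and 64 genes in C5, C6, C7 and C8. Both groups averaged 61.75 genes (SD 2.63 for db/db and 3.86 for lean livers, n = 4 each). Their peaks numbered 148, 174, 159 and 140 in db/db lists and 157, 151, 157 and 146 in lean lists, a mean of 155.2 ± 14.7 against 152.8 ± 5.32 (SD, n = 4 each). The db/db values enclose all 4 lean values. The db/db lists held 8212 to 9754 peaks in all, against 7583 to 8503 in lean lists. As a share of all peaks of the list, spliceosome peaks made up 1.67%, 1.88%, 1.63% and 1.7% in db1, db2, db4 and db5. In C5, C6, C7 and C8 they made up 1.85%, 1.87%, 1.94% and 1.93%. The mean share was 1.72% (SD 0.11) in db/db and 1.897% (SD 0.0443) in lean lists, n = 4 each. The ranges overlap through db2 alone, and the difference in share was not tested.

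**Figure D1:**
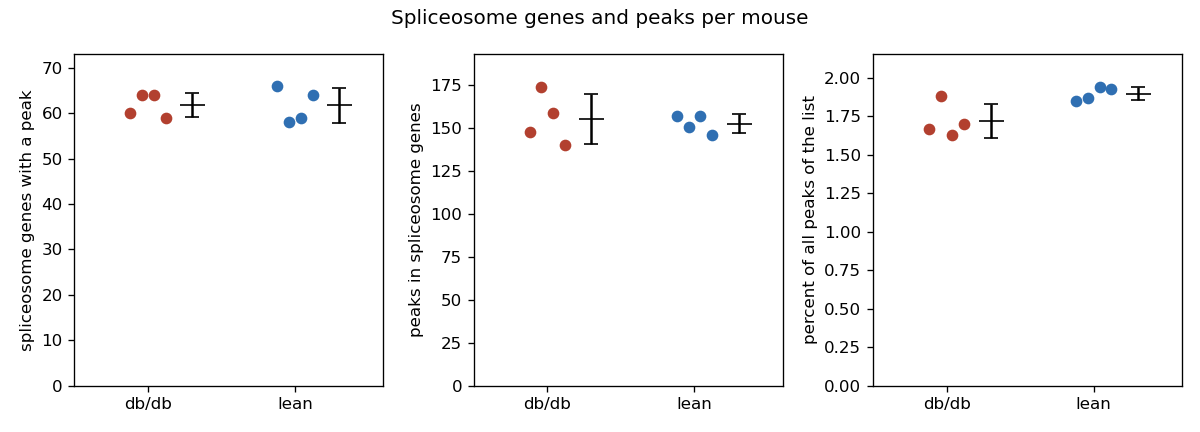
Spliceosome genes with a peak (left), peaks in them (middle) and their percent of all peaks of the list (right), for 4 db/db and 4 lean lists. Each point is a mouse, and the bar is the mean with its SD. The genes per mouse range from 59 to 64 in db/db and 58 to 66 in lean mice.

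The genes recurred between mice. Of the 91 genes, 42 (46.2%) had a peak in all 8 mice, beside 19.8% of all 8602 genes, and 15 (16.5%) in 1 mouse, beside 23.0%. The median gene was called in 7 mice and the median of all genes in 4. Among regions, 55 of 329 (16.7%) were called in all 8 mice, beside 6.21% of all regions, and 96 (29.2%) in 1 mouse, beside 45.0%. These shares describe the set and were not tested. Summed over the 8 lists, spliceosome genes had a median of 8 peaks against 4 for all genes, a sum that grows with the number of mice called. Within a list, genes of the set with a peak averaged 2.28 to 2.72 peaks, against 1.82 to 2.01 for all genes. The median number of regions per gene was 2 in both sets. Spans of spliceosome genes were shorter, with a median of 14516.5 bp for the 90 genes found in RefSeq against 28582.5 bp for 8072 of all genes.

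**Figure D2:**
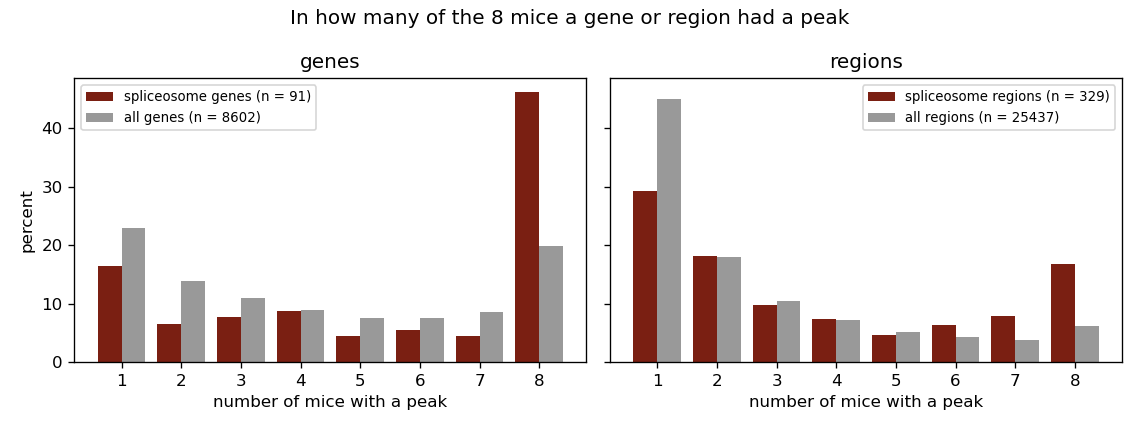
Percent of genes (left) and of merged regions (right) by the number of mice with a peak, for the spliceosome set and for all. At 8 mice stand 46.2% of spliceosome genes and 16.7% of spliceosome regions, beside 19.8% of all genes and 6.21% of all regions.

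Numbers of mice were often equal between the groups. More db/db than lean mice had a peak in 22 genes (24.2%, beside 38.2% of all genes), more lean mice in 21 (23.1%, beside 30.1%), and equal numbers in 48 (52.7%, beside 31.7%). These shares were not tested. Of the 48 genes with equal numbers, 42 were those with a peak in all 8 mice, where the numbers must be equal. Such genes made up 46.2% of the set, beside 19.8% of all genes, so the share of equal genes largely restates recurrence. The median difference was 0 mice, as over all genes. Fisher's exact test with Benjamini-Hochberg adjustment over all 8602 genes called 0 of the 91 genes, beside 0.0% of all genes. An unadjusted p under 0.05 was found for 2 of the 91 (2.2%, beside 1.62% of all genes). A pattern of 4 mice against none has an exact p of 0.0286, the smallest that 4 against 4 allows, and a pass would need 57.1% of all genes to show it. Peaks in at least 3 db/db mice and at most 1 lean mouse were found for 5 genes (5.49%, beside 7.16% of all genes), namely Hspa1b, Hspa2, Lsm4, Lsm7 and Xab2. The opposite held for 5 genes (5.49%, beside 5.03%), namely Prpf19, Prpf38a, Rbmxl1, Sf3b4 and Snrpa. Both shares are near the background.

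**Figure D3:**
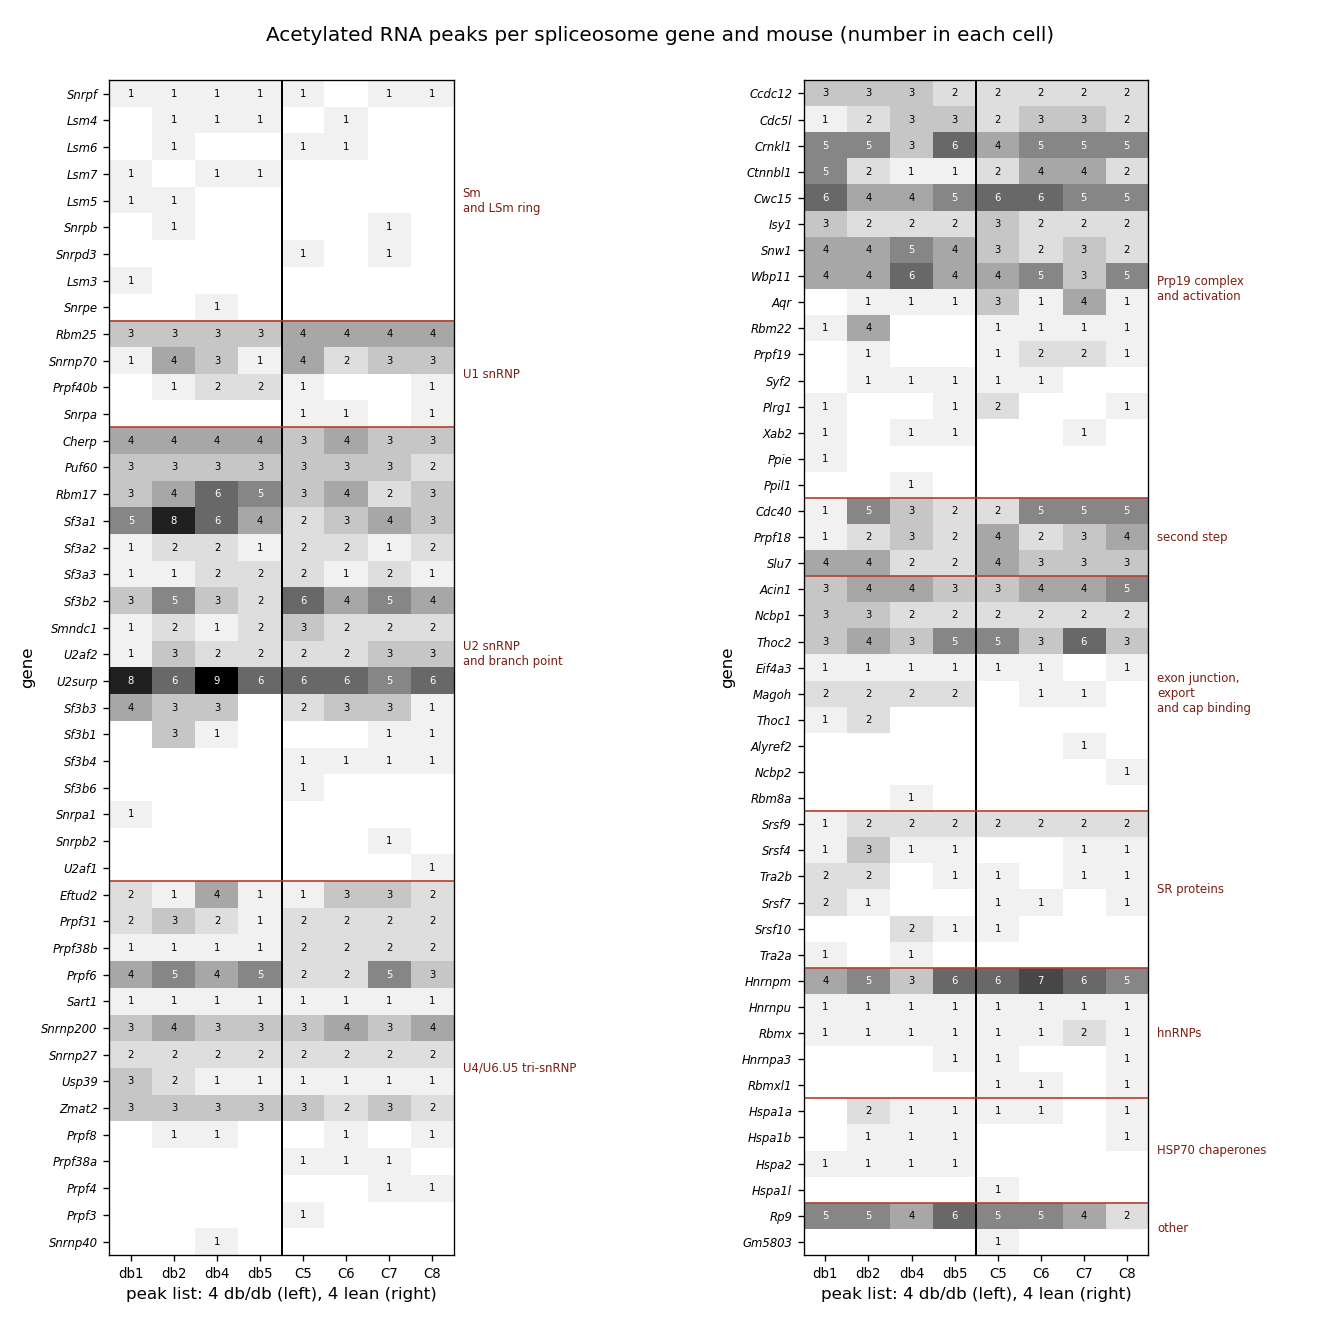
Number of peaks of 89 of the genes (rows, grouped by role) in each of the 8 lists (columns, db/db left of the line and lean right of it). Empty cells hold no peak. Genes called in all mice fill their rows, and no Sm or LSm gene is among them.

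Hspa2 was the 1 gene found in all 4 db/db lists but no lean list (1.1%, beside 0.942% of all genes). It encodes an HSP70 chaperone known for its role in sperm formation, and the pathway map lists it with the HSP70 proteins found in spliceosomes. Its region on chromosome 12 from 76405617 to 76406577 (mm10), inside the gene (76403812 to 76406938, plus strand), had folds of 3.82, 4.41, 7.42 and 5.27 in db1, db2, db4 and db5. Fold here is the authors' linear enrichment of a peak within its own list and was not tested between lists. Each filter on the peaks ended this pattern: a minimum score of 50 left Hspa2 in 50% of db/db mice, and a minimum fold of 4 left it in 75%, with no lean mouse under either. The 1 gene with the complete db/db pattern was then Magoh under the score filter and Eftud2, a GTPase of the U5 particle, under the fold filter.

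Sf3b4 was the 1 gene found in all 4 lean lists but no db/db list (1.1%, beside 0.674% of all genes). It encodes a subunit of SF3b, the part of the U2 particle that holds the branch point. The region on chromosome 3 from 96176979 to 96177564 reaches the annotated end coordinate of the gene (96172506 to 96177564), with folds of 5.82, 7.20, 14.71 and 8.43 in C5, C6, C7 and C8. Sf3b4 kept this pattern at a score of at least 50 and at a fold of at least 4, where Hspa2 lost its own. With equal numbers of peaks per list both genes kept their patterns.

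At the level of regions, 3 were called in all 4 db/db mice alone (0.912%, beside 0.853% of all regions) and 5 in all 4 lean mice alone (1.52%, beside 0.708%). Allowing at least 3 mice of one group and at most 1 of the other gave 20 regions for db/db (6.08%, beside 6.07%) and 20 for lean mice (6.08%, beside 4.81%). Over 25437 regions Fisher's exact test with Benjamini-Hochberg adjustment called 0 of the 329 spliceosome regions, beside 0.0% of all regions. An unadjusted p under 0.05 was found for 8 (2.43%, beside 1.56% of all regions). Besides that of Hspa2, the db/db regions were in Magoh and U2surp. Magoh, a core subunit of the exon junction complex, had one on chromosome 4 from 107880893 to 107880951, with folds of 4.59, 4.99, 2.52 and 3.39 in db1, db2, db4 and db5. U2surp, which encodes a U2-associated protein, had one on chromosome 9 from 95484170 to 95484333, with folds of 3.69, 4.45, 7.01 and 4.95. Both genes had other peaks in lean mice. With equal numbers of peaks per list the U2surp region was called in 75% of db/db mice, which ended its pattern.

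Of the lean regions, 4 are described here, in Sf3b4, Rbm25, Cdc5l and Prpf38b. Rbm25, a U1-associated splicing regulator, had its region on chromosome 12 from 83671908 to 83671981, with folds of 4.54, 2.98, 3.58 and 3.61 in C5 to C8. That of Cdc5l, a core subunit of the Prp19 complex, lay on chromosome 17 from 45424501 to 45424600, with folds of 2.63, 4.88, 2.01 and 5.36. All of these genes but Sf3b4 had peaks elsewhere in every db/db mouse. At a score of at least 50, 2 of the 8 regions kept the pattern, those of Sf3b4 and Rbm25. At a fold of at least 4 only that of Sf3b4 did. Further regions called in 3 db/db mice alone lay inside genes that include Sf3a1, Snw1, Rbm17, Prpf6, Cherp and Ccdc12, and in 3 lean mice alone inside Cdc40, Sf3b2, Prpf18 and Thoc2.

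**Figure D4:**
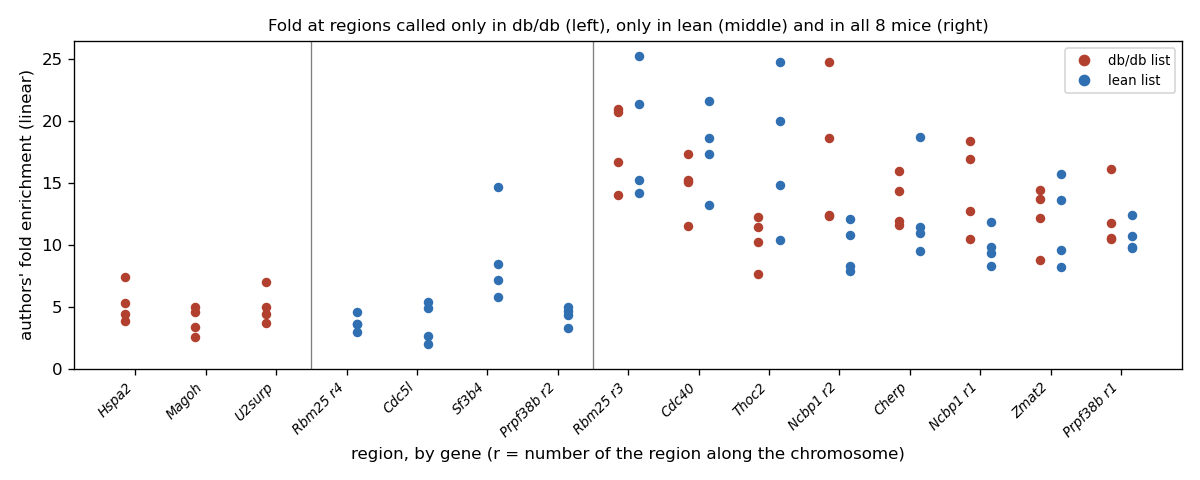
Authors' fold enrichment (linear axis) of each list at the 3 regions called in all db/db and no lean mice, 4 of those called in all lean and no db/db mice, and the 8 regions of highest mean fold shown among those called in all 8 mice. Each point is a list. The plotted regions called in 1 group have folds of 2.01 to 14.71, and Sf3b4 has the highest of them.

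The Prpf38 pair encodes proteins related to a yeast tri-snRNP factor, and the starts of both genes carried peaks in lean mice alone. Prpf38b had a region on chromosome 3 from 108911164 to 108911727, which ends 2 bases short of the annotated start, with folds of 4.31, 4.97, 3.26 and 4.62 in C5 to C8. Prpf38a had one on chromosome 4 from 108578985 to 108579336, which ends at the annotated start, with folds of 3.03, 3.47 and 4.58 in C5, C6 and C7 and no peak in C8. No db/db list had a peak at either start. The filters ended the pattern of the Prpf38b start. Its difference, percent of db/db minus percent of lean mice, was -25.0 at a score of at least 50 and -75.0 at a fold of at least 4. Prpf38b kept a far stronger region, on chromosome 3 from 108903076 to 108904762, in all 8 mice, with folds of 10.58, 10.46, 11.81 and 16.17 in db/db and 12.39, 10.68, 9.72 and 9.82 in lean mice. The Prpf38a start lies inside the bounds of Orc1, and the lists give no strand. A peak there cannot be assigned to 1 of the 2 genes.

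Among the other uneven starts printed above, that of Srsf4, an SR protein, was called in db1, db2 and db5 with folds of 3.45, 5.39 and 6.39 and in no lean mouse. Its region runs on chromosome 4 from 131873617 to 131873870. That of Prpf19, the ubiquitin ligase that gives the Prp19 complex its name, was called in C6, C7 and C8 with folds of 4.00, 6.46 and 2.72 and in no db/db mouse. It begins at the annotated start on chromosome 19 and runs from 10895231 to 10895468. Rbmxl1, called in C5, C6 and C8 with folds of 4.11, 3.35 and 3.25, is a retrocopy of Rbmx, so its calls are uncertain. None of these 3 patterns, nor that of Prpf38a, had an unadjusted exact p under 0.05 (0.143 each for 3 mice against none). At a score of at least 50 no call of Prpf38a or Rbmxl1 was left in either group.

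Starts were a frequent place for peaks. Strand was known for 70 of the 91 genes, through the promoter table, and 38 of them (54.3%) had a peak over the first 50 transcribed bases in some mouse, beside 46.0% of all genes with a strand. This share pools 8 lists and so favours genes called in more mice. Per mouse, 34.8% to 45.5% of the spliceosome genes with a peak had one over the start, beside 32.9% to 44.1% of all genes. Such peaks made up 152 of 919 peaks (16.5%), beside 20.0% of all peaks. Per mouse the share was 14.8%, 14.0%, 16.2% and 18.9% in db/db lists and 17.9%, 17.7%, 16.1% and 17.1% in lean lists, which overlap. An edge of the peak fell exactly on the annotated start for 78 peaks (8.49%, beside 10.6% of all). The last 50 bases of the gene lay under 16 peaks (1.74%, beside 2.25%). Exons and introns were not annotated in the tables used here.

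**Figure D5:**
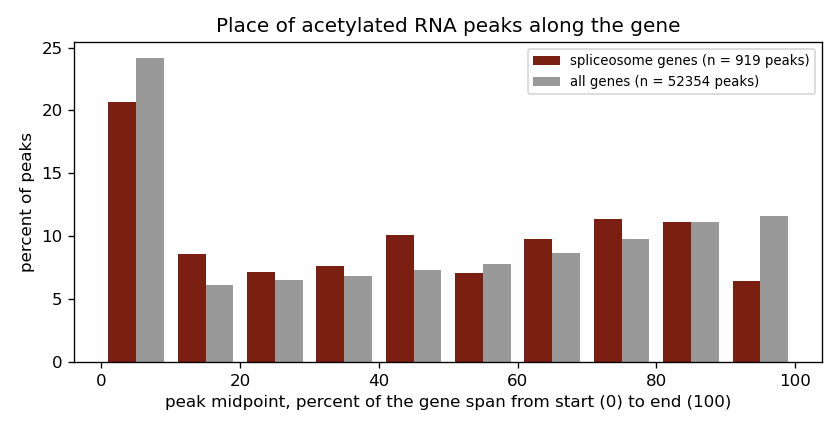
Percent of peaks whose midpoint falls in each of 10 equal parts of the gene span, from start to end, for 919 spliceosome peaks and 52354 peaks of all genes with a strand. The first 10% of the span holds 20.7% of spliceosome peaks and 24.2% of all peaks.

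The triplet CCG, searched on the transcribed strand, stood in the first 50 transcribed bases of 25 of the 38 spliceosome genes with a start peak (65.8%) and of 23 of the 32 without one (71.9%). It stood in 76.5% of the windows of all 2942 genes with a start peak, in 70.7% of those of the 6389 genes with a peak anywhere and in 42.9% of all 27025 windows. Cytidine made up 27.4% of these bases in spliceosome genes with a start peak and 28.7% in those without. Of the 9 start sequences shared by all mice, Ccdc12, Hnrnpm and Snrnp70 have no CCG in their first 30 bases. In the first 30 bases of the uneven set, Srsf4 and Prpf19 have it and Prpf38a, Prpf38b and Rbmxl1 do not. Over the first 50 bases, as used for the shares above, Hnrnpm and Prpf38a have it too. A match is a description of the letters and marks no acetylated site.

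By role, the Sm and LSm ring genes, whose products form the rings on the snRNAs, had few calls. None of the 9 had a peak in all 8 mice. In db1, db2, db4 and db5, 4, 5, 4 and 3 of them had a peak, and in C5 to C8 3, 2, 3 and 1, so the groups overlap at 3. Lsm7 had folds of 6.18, 2.80 and 3.17 in db1, db4 and db5, at the end of the gene, and no lean call. Lsm4 had folds of 6.91, 2.79 and 3.53 in db2, db4 and db5 and of 2.78 in C6. Lsm5 was called at its start in 2 db/db mice, and Snrpf in 4 db/db and 3 lean mice. The rest, with db/db and lean mice in turn, are Lsm6 (1 db/db, 2 lean), Snrpb (1 db/db, 1 lean), Snrpd3 (0 db/db, 2 lean), Lsm3 (1 db/db, 0 lean) and Snrpe (1 db/db, 0 lean). No Sm or LSm gene had more than 1 peak in a list.

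Of 6 genes of the U1 particle and its partners, 4 had a peak in all 8 mice, among them Rbm25 and Snrnp70, which encodes the U1 70K protein. Snrpa, which encodes a protein of the U1 particle, was called in no db/db and 3 lean mice, with best folds of 3.48, 3.74 and 4.64 in C5, C6 and C8. The calls fell in 2 regions. Prpf40b had peaks in 3 db/db mice and 2 lean ones.

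Rbm25 ranked highest of the set by mean percentile of best fold, 98 among genes of the same list. All 8 mice shared a region of 217 bp at 83668092 to 83668308 on chromosome 12, with folds of 16.70, 20.77, 14.04 and 21.03 in db/db and 21.37, 14.23, 15.28 and 25.31 in lean mice. Its fold was the highest of the set in db1, db2 and C8, and another gene was higher in the other lists. The lean-only region of Rbm25 described above lies further along the same gene. It took Rbm25 to 4 peaks in each lean mouse, against 3 in each db/db mouse.

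The 17 genes of the U2 particle and branch point factors were recurrent, with 10 in all 8 mice. These were Cherp, Puf60, Rbm17, Sf3a1, Sf3a2, Sf3a3, Sf3b2, Smndc1, U2af2 and U2surp. A peak was found for 12, 12, 12 and 10 of the genes in db/db and 13, 12, 14 and 14 in lean mice. U2surp had the most regions of any gene in the set, 11, and 8, 6, 9 and 6 peaks in db/db against 6, 6, 5 and 6 in lean mice. Sf3a1, an SF3a subunit, had 5, 8, 6 and 4 peaks in db/db and 2, 3, 4 and 3 in lean mice, which meet at 4. Sf3b3 had peaks in 3 db/db mice and in 4 lean mice, and Sf3b1, the subunit that grips the branch point, in 2 and 2. Snrpa1 was called in 1 db/db mouse, and Sf3b6, Snrpb2 and U2af1 in 1 lean mouse each.

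Of 14 tri-snRNP genes, 9 had a peak in all 8 mice: Eftud2, Prpf31, Prpf38b, Prpf6, Sart1, Snrnp200, Snrnp27, Usp39 and Zmat2. Peaks totalled 85 in each group. Prpf6, a bridge between U5 and U4/U6, had 4, 5, 4 and 5 peaks in db/db and 2, 2, 5 and 3 in lean mice. Bases 181647289 to 181647427 of chromosome 2 were called there in 4 db/db and 1 lean mouse. Snrnp27 had 2 peaks in every mouse. Prpf8, the scaffold at the heart of the spliceosome, had peaks at its start in 2 mice of each group, with folds of 3.48 to 3.64 in db/db and 3.75 to 3.80 in lean mice. Prpf38a, Prpf4 (0 db/db and 2 lean mice), Prpf3 (0 db/db and 1 lean) and Snrnp40 (1 db/db and 0 lean) complete the group.

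In the Prp19 group 8 of 16 genes were called in all mice: Ccdc12, Cdc5l, Crnkl1, Ctnnbl1, Cwc15, Isy1, Snw1 and Wbp11. In each db/db mouse 12 of the genes had a peak, and in C5 to C8 13, 12, 12 and 12. Snw1, a subunit that joins at activation, had 4, 4, 5 and 4 peaks in db/db and 3, 2, 3 and 2 in lean mice. Prpf19 had peaks in 1 db/db mouse and in 4 lean mice, Aqr in 3 and 4, Rbm22 in 2 and 4, Syf2 in 3 and 2, and Plrg1 in 2 and 2. Xab2, a subunit also known from DNA repair, had best folds of 4.04, 6.85 and 8.60 in db1, db4 and db5 and of 7.7 in C7, and at a score of at least 50 its difference between the groups was 0. Of the Rbm22 peaks, those at 60567371 to 60567922 of chromosome 18 came from 1 db/db and 4 lean mice. Ppie and Ppil1, cyclophilins, were called in 1 db/db mouse each.

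The 3 genes of the second catalytic step, Cdc40, Prpf18 and Slu7, had a peak in all 8 mice. Their peaks numbered 6, 11, 8 and 6 in db/db and 10, 10, 11 and 12 in lean mice, which overlap at 10 to 11. Cdc40 carried one of the broadest shared regions, 1677 bp on chromosome 10 from 40831680 to 40833356, with folds of 11.56, 15.08, 17.32 and 15.22 in db/db and 21.64, 17.36, 18.64 and 13.25 in lean mice. The values overlap. It stood at a mean percentile of 97.4 for best fold.

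Among 9 genes of the exon junction complex, export and cap binding, Acin1, Ncbp1 and Thoc2 were called in all mice. Ncbp1, the large cap-binding subunit, had its start region printed above, with folds of 10.44, 18.43, 12.76 and 16.93 in db/db and 11.86, 9.32, 8.30 and 9.84 in lean mice. A further region at 46144785 to 46144873 of chromosome 4 had folds of 12.31, 18.62, 12.38 and 24.83 in db/db and 10.76, 12.07, 7.88 and 8.31 in lean mice. Thoc2, a subunit of the THO export complex, had a region at 41814198 to 41814628 of chromosome X, with folds of 7.63, 11.45, 10.24 and 12.22 in db/db and 24.81, 14.86, 10.40 and 20.01 in lean mice. None of these folds was tested between groups. Magoh had 2 peaks in each db/db mouse and 0, 1, 1 and 0 in lean mice. Eif4a3 was called at its start in 4 db/db and 3 lean mice, Thoc1 in 2 and 0, Rbm8a in 1 and 0, and Alyref2 and Ncbp2 in 0 and 1.

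Of 6 SR protein genes, Srsf9 alone had a peak in all 8 mice, at its start. Srsf4 had peaks in 4 db/db mice and in 2 lean mice, Tra2b in 3 and 3, Srsf7 in 2 and 3, Srsf10 in 2 and 1, and Tra2a in 2 and 0. In the hnRNP group Hnrnpm, Hnrnpu and Rbmx were called in all mice. Hnrnpm had 3 regions called in all 8 mice, the most of any gene in the set, and 4, 5, 3 and 6 peaks in db/db against 6, 7, 6 and 5 in lean mice. Hnrnpa3 (1 db/db and 2 lean mice) and Rbmxl1 (0 db/db and 3 lean) were sparser. Rp9, which no role list held, was called in all mice and the predicted gene Gm5803 in 1 lean mouse.

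In the stress-inducible HSP70 genes Hspa1a and Hspa1b the merged peaks spanned nearly the whole gene, on chromosome 17 from 34969638 to 34972156 and from 34956429 to 34959238. Hspa1a, with 3 mice called in each group, had best folds of 4.52, 3.73 and 9.64 in db2, db4 and db5 and 19.32, 7.91 and 6.70 in C5, C6 and C8. Hspa1b was called in db2, db4 and db5 with folds of 4.35, 4.45 and 4.48 and in C8 with 3.79. The copies are near-identical, as their first 30 transcribed bases show (chr17:34972127-34972156 and chr17:34959209-34959238, minus strand, no CCG), so reads can be placed on either and both calls are uncertain.
Hspa1a: accagacgctgacagctactcagaaccaaa
Hspa1b: accagacgctgacagctactcagaatcaaa
They differ by C26T, written from Hspa1a to Hspa1b and counted from 1 at the start, and the 300 bases of their promoter windows differ by 4 bases in all. Hspa1l was called in 1 lean mouse.

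Counting peaks per gene, after the values had been seen, put 3 genes higher in every db/db than in every lean list (3.3%, beside 1.89% of all genes) and 4 lower (4.4%, beside 1.16%). The higher ones were Hspa2, Magoh and Snw1. The lower ones included Prpf38b, with 1 peak in each db/db mouse and 2 in each lean mouse, Rbm25 and Sf3b4. At a score of at least 50, and likewise at a fold of at least 4, the count of lower genes was 1.

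On average, lists of the same group shared more regions than lists of different groups, in the spliceosome set as in all regions. The share of regions called in both of 2 lists, out of those called in either, averaged 0.533 over the 6 pairs of db/db lists (0.512 to 0.582), 0.548 over the 6 lean pairs (0.507 to 0.563) and 0.462 over the 16 pairs across groups (0.427 to 0.507). For all regions the averages were 0.351, 0.380 and 0.297. Spliceosome peaks had a median width of 153.5 to 162.5 bp in db/db and 154 to 156.5 bp in lean lists, beside 177 to 180 and 183 to 195 bp for all peaks. These values describe the set and were not tested.

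The pathway list written for this work holds 119 symbols in RefSeq, of which 89 are among the 91 genes. Another 29 had no row in the lists used here, among them Hnrnpa1, Hnrnpc, Hnrnpk, Srsf1, Srsf2, Srsf3 and Hspa8, and Snrpn had a row without the pathway entry. No row means that no peak was listed, not that the RNA carried no ac4C or was not made. Of 12 hepatocyte markers 3 had a peak, and Alb, Apoa1 and Ttr had none although they are abundant transcripts of hepatocytes. Per mouse, 0 to 2 hepatocyte markers had a peak in db/db and 0 to 1 in lean livers. Stellate cell markers with a peak numbered 4 to 6 of 10 per db/db mouse and 1 to 4 per lean mouse. The counts were 1 to 2 in db/db and 1 to 3 in lean mice for 10 Kupffer cell and macrophage markers, and 1 to 6 in db/db and 3 to 5 in lean mice for 10 sinusoidal endothelial markers. They were 1 to 3 in db/db and 1 to 2 in lean mice for 6 cholangiocyte markers, and 0 to 2 in db/db and 0 to 1 in lean mice for 6 lymphocyte markers. Their part in the differences above was not tested. Fewer cells of a type and less RNA per cell cannot be told apart in whole liver.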

How the data were processed

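Peak lists of ac4C immunoprecipitated RNA from 4 db/db and 4 lean livers were analysed. The labels' protocols give depletion of ribosomal RNA, fragmentation and a directional library kit. The submitters' processing notes name cutadapt 1.9.3, HISAT2 2.0.4 and the build mm10. The caller, from the names of the deposited peaks, was MACS, and its settings, pooling and control are not given in the sources used here. The score deposited by the authors is, per the file headers, 10 times the negative log10 of a p-value (lowest 13.02). The deposited fold is a linear ratio (lowest 2.0). The false discovery rate was deposited in percent and is 100% for 99.21% of all peaks, and no spliceosome peak had 5% or less. No read counts per peak were used here, so the depth of each list is unknown and intervals for counting error could not be given.

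List names were mapped to groups and not to numbered samples. Peaks sharing at least 1 bp were merged. Printed starts are 1-based. Presence was tested per gene and per region with Fisher's exact test (two-sided, SciPy 1.17.1) and Benjamini-Hochberg adjustment over all genes or regions. Simulated data checked only that planted complete patterns were counted and had an exact p under 0.05. Whether planted patterns pass adjustment was not checked. Absence of a peak also depends on depth and transcript level. Gene bounds, strand and start sequences came from RefSeq tables of GRCm38.p6, with 90 of 91 symbols matched. Peak midpoints gave positions, as no summit was listed. The count of genes whose peak numbers do not overlap was added after seeing the data. The pathway genes, role lists and tests were chosen with earlier results of these data known. Genes named are those with 4 mice against none or at least 3 against at most 1, those with such a complete region, the 10 of highest best fold in all 8 mice, the 10 with most peaks, and those in 1 mouse. Results for 2 of the genes are not reported here, though the counts include them. The others are named by role with the number of mice. Alternatives were a score of at least 50, a fold of at least 4, equal numbers of peaks per list (7583), leaving out each list in turn, 50% overlap for merging, score in place of fold for ranks, and keeping the helicases.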

Additional observations from a re-analysis of the deposited data

Results flagged for a closer look

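Among 30 groups of 4 lists, the lowest or highest list stood apart by Dixon's criterion in 2. Chance flags about 1 in 20 for continuous values with a normal spread. Many of these groups are small peak counts with ties, so that rate need not hold. The C8 list had 29 peaks in Prp19 complex and activation genes, against 34, 34 and 35 in C5, C6 and C7. The db2 list had 16 peaks in exon junction, export and cap binding genes, against 13 in each of db1, db4 and db5.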

How the results depend on the processing

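No paired analysis was possible because the list names do not carry the sample numbers of the labels. The difference in spliceosome genes per mouse, 0.0 as reported, was -1.0 at a score of at least 50, 0.75 at a fold of at least 4, -2.25 with equal numbers of peaks and 0.25 with the helicases kept. Without each list in turn it ranged from -1.25 to 1.42. The difference in peaks, 2.5, turned to -0.25 at that score and to -5.0 with equal numbers, was 6.75 at that fold, and ranged from -3.75 (without db2) to 7.58 without 1 list. The changes in genes were under the SD between mice of either group. Those in peaks were under the db/db SD of 14.7, and with equal numbers or without db2 they were over the lean SD of 5.32. Regions in every lean and no db/db mouse numbered 3 at the score and 1 at the fold filter, against 5, and genes with fewer peaks in every db/db list 1 under either filter, against 4. The filters leave fewer peaks by construction, and they change which genes meet the criterion: of the 8 regions complete in 1 group, 2 stayed so at the score, 1 at the fold and 7 with equal numbers of peaks. Leaving out 1 list loosens the criterion: genes only in db/db mice numbered 1 to 2 (2 without db2), genes only in lean mice 1 to 3 (2 without db2 or C8, 3 without C7), db/db regions 3 to 6 (5 without db1, db4, db5 or C7, 6 without db2), lean regions 5 to 9 (9 without C6), and genes higher or lower in peak number 3 to 5 (5 without db5, C6 or C7) and 4 to 6. No named gene or region turned its direction under any alternative, but Prpf38a, Rbmxl1 and Xab2 had a difference of 0.0 at the score filter. Where 1 group had no call, a turn was not possible, because these alternatives only remove peaks or lists. No named gene or region passed adjustment. Joining peaks at 50% overlap left 3 and 5 regions, and the mean of the lists' median percentiles was 71.8 by score and 69.4 by fold. Using the summit was not run, as none was listed.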
